A study of Mus musculus with 12 samples.

Results

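Mouse blood cells lacking both Stat5 genes were compared with control blood cells on the 6 arrays whose titles end in a plus sign, 3 from knockouts and 3 from controls, out of 12 arrays in the series. The 6 were taken by title alone: knockouts CMPKO+a, KC+ and KOCMP+, and controls CMPCTL+, CC+ and CTLCMP+. The other 6 arrays carry a minus sign, and their protocol text says that no CMP was given. They served here to estimate the spread between arrays and to show where the knockout difference depended on the plus label.

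All 3 knockout plus samples are labelled as Stat5 KO treated with CMP, and all 3 control plus samples as control treated with CMP. The series text states that the knockouts lack Stat5a and Stat5b. The labels spell out neither what CMP stands for nor which blood cells were used, and they name no Cre, promoter, strain, age or dose. The titles fall into 3 forms, and each form holds 1 control and 1 knockout plus array: pair A is CMPCTL+ with CMPKO+a, pair B is CC+ with KC+, and pair C is CTLCMP+ with KOCMP+. No label says whether arrays of a group came from separate animals or cultures, so the p-values measure the spread between these samples only, which may be technical.

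STAT5A and STAT5B are closely related transcription factors that JAK kinases phosphorylate when cytokines such as GM-CSF, interleukin 3, erythropoietin or thrombopoietin bind their receptors. The phosphorylated factors pair up, enter the nucleus and bind a palindromic DNA element, where they switch on genes for survival and growth together with the feedback inhibitors CISH, SOCS2 and SOCS3. In blood formation they are best known for roles in stem cell maintenance, red cell survival, lymphocyte development and the restraint of some dendritic cell programmes.

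The values are MAS5 signals, a linear measure of brightness for each probe set, with a mean of 500 on every array after trimming 2% at each end. Median signals of the plus arrays lay between 73.9 and 113.6. With arrays, the number of arrays limits the precision. Pair B stood apart from the others most clearly by beta-actin. The ratio of the 3′ probe set to the 5′ probe set grows as RNA or its copies become shorter. For beta-actin it was 33.4 in control B and 54.8 in knockout B, against 1.41 to 4.40 in the other 4 plus arrays. For Gapdh, as log2, it was 4.82 in control B and 6.09 in knockout B. It was 4.56 in control A, 3.89 in knockout A, 2.07 in control C and 1.70 in knockout C. By Gapdh pair A was thus also high, with control A close to control B. Knockout B (KC+) also has a source label whose opening number differs from the one shared by control B and both minus arrays of that form. The minus array KC- is a knockout by title but a control by its protocol text, and its Stat5a signal of 50.1 and Stat5b signal of 32.3 lay with those of the other knockouts.

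Differences are given as knockout minus control on the scale log2(signal + 32), as the mean of the 3 pairs ± the standard error of the limma fit, with n = 3 arrays per group unless stated. This scale understates the change of genes with low signals. A gene counts as called where its p-value, adjusted by the Benjamini-Hochberg method over all 10583 genes tested, is under 0.05. X-linked and Y-linked genes are left out of the description, which leaves 10215 autosomal genes.

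Both targeted genes fell in the knockout plus arrays, and no other gene was called at the level of 1 probe set per gene. Stat5a had signals of 884, 1436 and 660 in control arrays A, B and C and of 28.9, 49.9 and 43.1 in knockout arrays A, B and C. Stat5b had signals of 1407, 1036 and 1340 in the controls and of 7.28, 26.9 and 71.3 in the knockouts. For both genes every knockout array lay far below every control array. Stat5a fell by 3.76 ± 0.29 and Stat5b fell by 4.37 ± 0.33 on the log2 scale, each with a limma adjusted p of 0.000122. With the 6 plus arrays fitted alone and their pairs kept, Stat5a and Stat5b had the same differences and an adjusted p of 0.0955 in limma. With KC- counted as a control, the limma adjusted p was 0.513 for Stat5a and 0.486 for Stat5b. A second, dimmer probe set of Stat5a had signals of 113, 38.1 and 113 against 0.970, 2.26 and 17.9, again with no overlap. The second probe set of Stat5b was much less separated, at 203, 87.7 and 128 in the controls and 53.1, 85.1 and 63.6 in the knockouts, and in pair B the 2 arrays were nearly equal. Where these probe sets lie relative to the deleted part of either gene is not given in the sources used here. RNA of a mixed sample cannot tell fewer cells with a transcript from less of the transcript per cell.

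**Figure D1:**
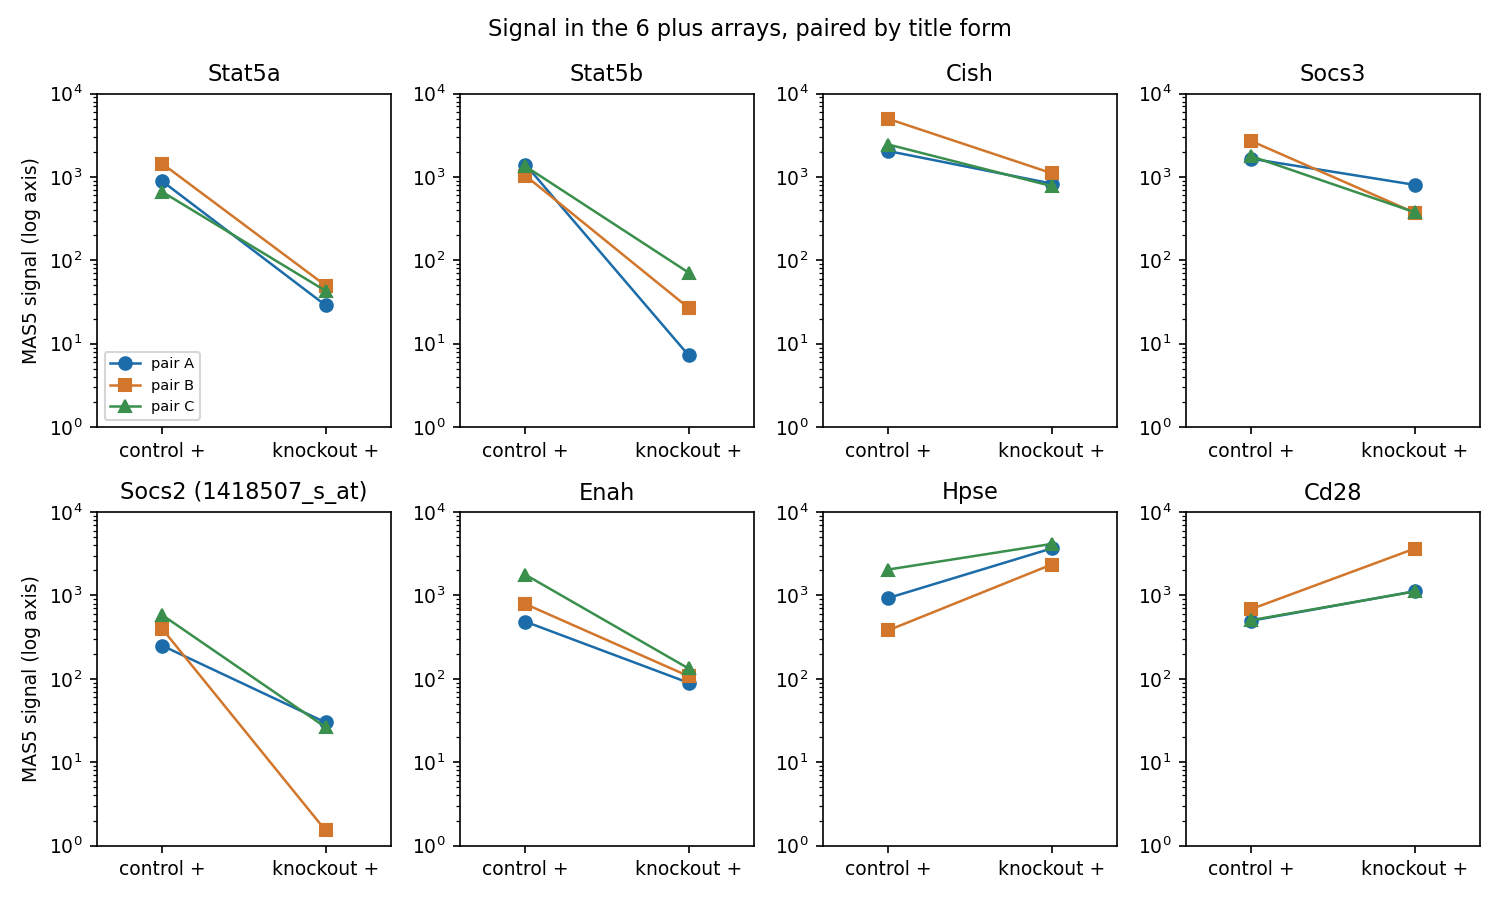
MAS5 signal on a log axis in control and knockout plus arrays for 8 genes, with a line joining the 2 arrays of each pair. Every line for Stat5a, Stat5b, Cish, Socs3, Socs2 and Enah goes down, and every line for Hpse and Cd28 goes up, with no overlap between the groups in any of the 8 panels.

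The called genes made up 0.0189% of the 10583 tested. With no adjustment, 469 genes (4.43%) had a p under 0.05 on the higher side and 569 (5.38%) on the lower side, 1038 in all where 529 would be expected with no difference. That count varied with the arrays and the block. It was 283 without control B, 312 without knockout B and 459 without pair B and its minus arrays. With no block for the title form it was 265, and with the 6 plus arrays alone and pairs kept it was 480. The plus arrays of pairs A and C alone gave 1067, with 1 residual degree of freedom. Of the 469 higher and 569 lower genes, 445 and 553 were autosomal. Moving every array to the same median turned the split into 1121 higher and 212 lower and moved the median of all genes up by 0.19, from -0.04, while quantile normalization gave 615 higher and 427 lower. The balance between higher and lower genes therefore depended on the scaling, and the main list medians below are also given relative to the median of all genes. List counts below at an unadjusted p under 0.05 stand against the shares of all genes. Those were 4.43% higher and 5.38% lower in the main fit, and 2.01% and 2.32% without pair B and its minus arrays. With arrays set to the same median they were 10.6% and 2.00%, and with quantile normalization 5.81% and 4.03%. A stricter description by size asked for at least 2-fold in each of the 3 pairs. On the higher side 3 genes (0.0283%) reached it, Hpse, Calhm6 and Cd28. On the lower side 9 genes (0.085%) did: Stat5a, Stat5b, Enah, Socs3, Cish, Batf3, Gimap8, Ahr and Col18a1. Over all 10583 genes tested, the groups did not overlap for 277 genes with the knockout higher and 322 with it lower. A lack of overlap is therefore common, and below it only describes the arrays.

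The size of the differences varied greatly between pairs. The standard deviation of the difference over all genes was 0.34 in pair A, 0.95 in pair B and 0.29 in pair C. At least 2-fold differences were seen for 163, 2886 and 85 genes in pairs A, B and C. Across genes, which are not independent replicates, the differences in pairs A and C had a correlation of 0.25, those in A and B 0.29, and those in B and C 0.15.

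**Figure D2:**
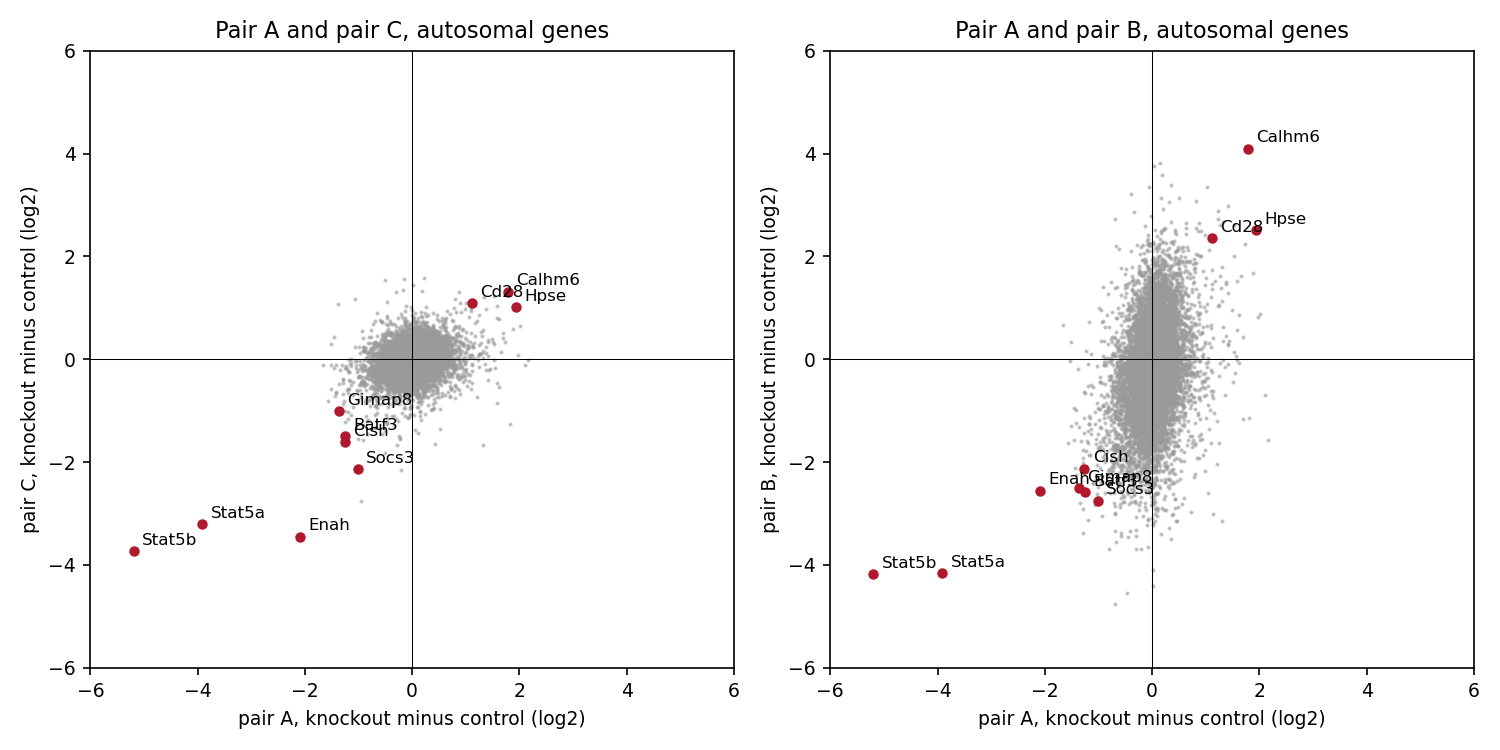
Knockout minus control in pair A (x axis, log2) against pair C (left) and pair B (right), 1 point per autosomal gene, with selected genes named. Stat5a, Stat5b and Enah lie at the lower left in both panels, and the cloud is far taller for pair B than for pair C.

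Cish and Socs3, feedback inhibitors of JAK and STAT signalling, were among the 9 genes at least 2-fold lower in every pair. Their promoters and that of the transcription factor gene Batf3, also among the 9, are shown as examples. Each holds the STAT5 palindrome TTCNNNGAA in its promoter window, as did 8.17% of tested autosomal genes with a window. Gimap8, also among the 9, holds 1 match, 47 bases before a start, and is not shown. The sequences are from RefSeq promoter windows (250 bases before the start to 50 after it, build GRCm38.p6), read 5′ to 3′ on the gene's strand, with each match in capitals. The Cish stretch is chr9:107296599-107296678 on the plus strand, with matches that begin at bases 1 and 12 of the transcript. The Socs3 stretch is chr11:117969472-117969560 on the minus strand, with a match that begins 154 bases before the start. The Batf3 stretch is chr1:191098164-191098243 on the plus strand, with a match that begins 239 bases before the start.
Cish: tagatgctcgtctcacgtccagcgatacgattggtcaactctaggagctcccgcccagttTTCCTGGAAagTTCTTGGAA
Socs3: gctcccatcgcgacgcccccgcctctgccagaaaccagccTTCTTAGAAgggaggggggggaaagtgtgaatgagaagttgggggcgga
Batf3: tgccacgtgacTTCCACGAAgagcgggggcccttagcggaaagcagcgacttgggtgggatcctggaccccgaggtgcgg

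Cish encodes an SH2 protein that binds activated cytokine receptors and dampens STAT5 activation. Its signals were 2041, 4960 and 2446 in the controls and 833, 1110 and 777 in the knockouts. Every knockout array was below every control array, and the pairs gave -1.26, -2.13 and -1.62. The mean of -1.67 ± 0.24 missed the threshold narrowly, with a limma adjusted p of 0.0521. Cish passed the threshold in 5 of 26 alternatives and was not called in 21. It passed with a constant of 100 and with the mean over probe sets, where its own value stayed at -1.67. It also passed without control A, where it was at -1.88 with a limma adjusted p of 0.0497.

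Socs3 encodes an inhibitor of JAK kinases that acts mainly at receptors of the interleukin 6 and G-CSF type. It had signals of 1653, 2688 and 1769 in the controls and 804, 373 and 378 in the knockouts. The groups did not overlap, but the pair differences ran from -1.01 in pair A to -2.75 in pair B. The mean was -1.96 ± 0.48 with a limma adjusted p of 0.470. Without knockout A Socs3 was at -2.69 and passed, with an adjusted p of 0.0420 in limma. Socs3 passed in 2 of 26 alternatives and was not called in 24. Its other probe sets gave -1.40 and -1.98.

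Socs2, a regulator of growth hormone and other STAT5-activating receptors, shows how much the choice of probe set mattered. It has 6 probe sets on the array. The one with the highest mean stands for the gene in the fit and gave -0.63 ± 0.26, with overlapping groups. Another of its probe sets lay below the level filter, with low signals in all but the control plus arrays. There it was at 249, 394 and 579, against 30.0, 1.52 and 26.3 in the knockout plus arrays. When all 34958 probe sets with 1 gene symbol were tested with no level filter, this probe set fell by 3.08 ± 0.33 with a limma adjusted p of 0.00908. It was called together with the main probe sets of Stat5a and Stat5b, 3 probe sets in all (0.00858%), all lower. A further pair of Socs2 probe sets gave -2.36 and -1.65 with no overlap between groups and were not called, and the 2 dimmest gave -0.25 and -0.19. This fit was added after the values had been seen.

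Among 31 tested genes of a STAT5 target list, 8 reached an unadjusted p under 0.05 on the lower side and 3 on the higher side. Over all genes these shares were 5.38% and 4.43%. The list median was -0.40, or -0.36 relative to all genes. With arrays set to the same median the counts were 4 lower and 4 higher, where 2.00% of all genes were lower and 10.6% higher. That scaling moves every gene by the same amount, so the relative median cannot change with it. Without pair B and its minus arrays the counts were 5 lower and 1 higher and the relative median was -0.12, where 2.32% of all genes were lower and 2.01% higher. Of 23 JAK kinases and negative regulators, 5 were on the lower side and none on the higher side, with a median of -0.09, or -0.05 relative to all genes. Of these 5, 4 are also counted among the 8 lower STAT5 targets: Cish, Socs2, Socs3 and Ptpn1. With arrays set to the same median, 2 were on the lower side and 1 on the higher side. There the list median was 0.11 and the median of all genes 0.15, so the relative median stayed at -0.05. Without pair B 3 of the 23 were on the lower side. None of these genes passed the adjusted threshold at 1 probe set per gene.

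Growth and survival genes of the target list did not pass the threshold either. Bcl2l1, which encodes the survival protein BCL-xL, had signals of 1118, 1449 and 1524 in the controls and 862, 871 and 844 in the knockouts. The groups did not overlap, and the difference was -0.64 ± 0.21, with an adjusted p of 0.507 in limma. Gadd45g, a stress-responsive growth regulator, was at -1.12 ± 0.39, but pair B (-2.42) set most of that, with -0.16 in pair C. The kinase gene Pim1 was at -0.80 ± 0.32 with 0.06 in pair A and -1.96 in pair B, and its groups overlapped. Osm, encoding the cytokine oncostatin M, was at -0.68 ± 0.33, with -1.51 in pair B and -0.08 in pair A. On the other side, Lpl, encoding lipoprotein lipase, was at 1.17 ± 0.39, with 1.53 and 2.00 in pairs A and B and -0.01 in pair C.

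Of the other STAT genes, Stat3 lies next to Stat5a in the genome, where Stat5b, Stat5a and Stat3 follow each other. Its main probe set had signals of 1011, 692 and 860 in the controls and 2968, 762 and 2073 in the knockouts, a difference of 0.97 ± 0.29 with an adjusted p of 0.507 in limma. Pairs A and C gave 1.52 and 1.24 and pair B gave 0.13. The other 3 probe sets of Stat3 gave -0.27, -0.47 and -0.28, and the mean over all 4 was -0.02, so the direction holds for a single probe set. Stat4 was at 0.79 ± 0.38, with 1.83 in pair B and 0.23 and 0.31 in the others. Stat2 and Stat6 were at 0.24 and -0.15.

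Receptors for blood growth factors had values on both sides of 0. Of 27 tested, 5 reached an unadjusted p under 0.05 on the higher side and 2 on the lower side. Over all genes these shares were 4.43% and 5.38%. The list median was 0.03, or 0.07 relative to all genes. Flt3, the receptor of early myeloid and dendritic progenitors, was at 0.83 ± 0.25, with 0.63, 1.38 and 0.50 in the pairs. Csf1r, the M-CSF receptor of monocytes and macrophages, was at 0.85 ± 0.29, with -0.04 in pair C. Il6st, the shared gp130 chain, was at 0.79 ± 0.29, with 0.05 in pair C. The beta chains that pass GM-CSF, interleukin 3 and interleukin 5 signals to STAT5 lay on the lower side, Csf2rb at -0.57 ± 0.27 and Csf2rb2 at -0.82 ± 0.33. These near-identical chains can share probes, so the pair may not be independent. Csf2ra, the GM-CSF binding chain, was at -0.37 ± 0.25. Without pair B, 1 of the 27 was on the higher side and none on the lower side.

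By the rule for named genes, the 5 genes with the smallest p in each direction that were not called are given next. On the lower side they were Cish, described above, Enah, Gimap8, Col4a2 and Arhgef40. Enah encodes an actin regulator of the Ena/VASP family. It had signals of 485, 788 and 1770 in the controls and 89.7, 108 and 133 in the knockouts, with no overlap, and stood at -2.70 ± 0.40 with a limma adjusted p of 0.0666. Its pairs gave -2.09, -2.55 and -3.45. Without control A Enah was at -3.12 and passed, with an adjusted p of 0.0497 in limma. Enah passed in 4 of the 24 alternatives that tested it and was not called in 20. Of its 5 other probe sets, 4 gave between -1.23 and -0.54 and the remaining one gave 0.11.

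Gimap8 encodes a GTPase of a family studied mostly in lymphocyte survival. Its signals were 1264, 1247 and 697 in the controls and 470, 192 and 331 in the knockouts, with no overlap, and the difference was -1.63 ± 0.32 with an adjusted p of 0.412 by limma. Col4a2, a collagen IV chain, was at -1.31 ± 0.27. Arhgef40 was at -1.13 ± 0.24. In both, all 3 knockout arrays lay below all 3 controls.

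On the higher side the 5 genes were Hpse, Calhm6, Cd28, Pmaip1 and Evl. Hpse encodes heparanase, the enzyme that cuts heparan sulfate chains. It had signals of 932, 382 and 2045 in the controls and 3656, 2343 and 4143 in the knockouts. Every knockout array was above every control array, and the difference was 1.82 ± 0.30 with a limma adjusted p of 0.116. Without knockout C Hpse was at 2.15 and passed, with an adjusted p of 0.0477 in limma. Hpse passed in 3 of 26 alternatives and was not called in 23.

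Calhm6, of the calcium homeostasis modulator family, had signals of 349, 3.66 and 164 in the controls and 1284, 578 and 455 in the knockouts. The groups did not overlap, and the difference was 2.40 ± 0.46, with 4.10 in pair B, where the control signal was far below the constant of 32, and 1.79 and 1.32 in pairs A and C. Cd28, best known as the costimulatory receptor of T cells, had signals of 497, 687 and 505 in the controls and 1119, 3633 and 1115 in the knockouts. The difference was 1.52 ± 0.29, and a second probe set gave 1.69. Both genes had an adjusted p of 0.343 in limma.

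Pmaip1 encodes the cell death protein NOXA and was at 1.27 ± 0.26. Its signals were higher in the knockout of every pair but overlapped between the groups, because control C, at 1839, was above knockout B, at 851. Evl, like Enah an Ena/VASP family member, was at 1.54 ± 0.34 with no overlap, but its other probe sets gave 0.23, -0.04 and -0.46. The 2 relatives therefore had opposite signs on their main probe sets, and that of Evl was not shared by the others.

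**Figure D3:**
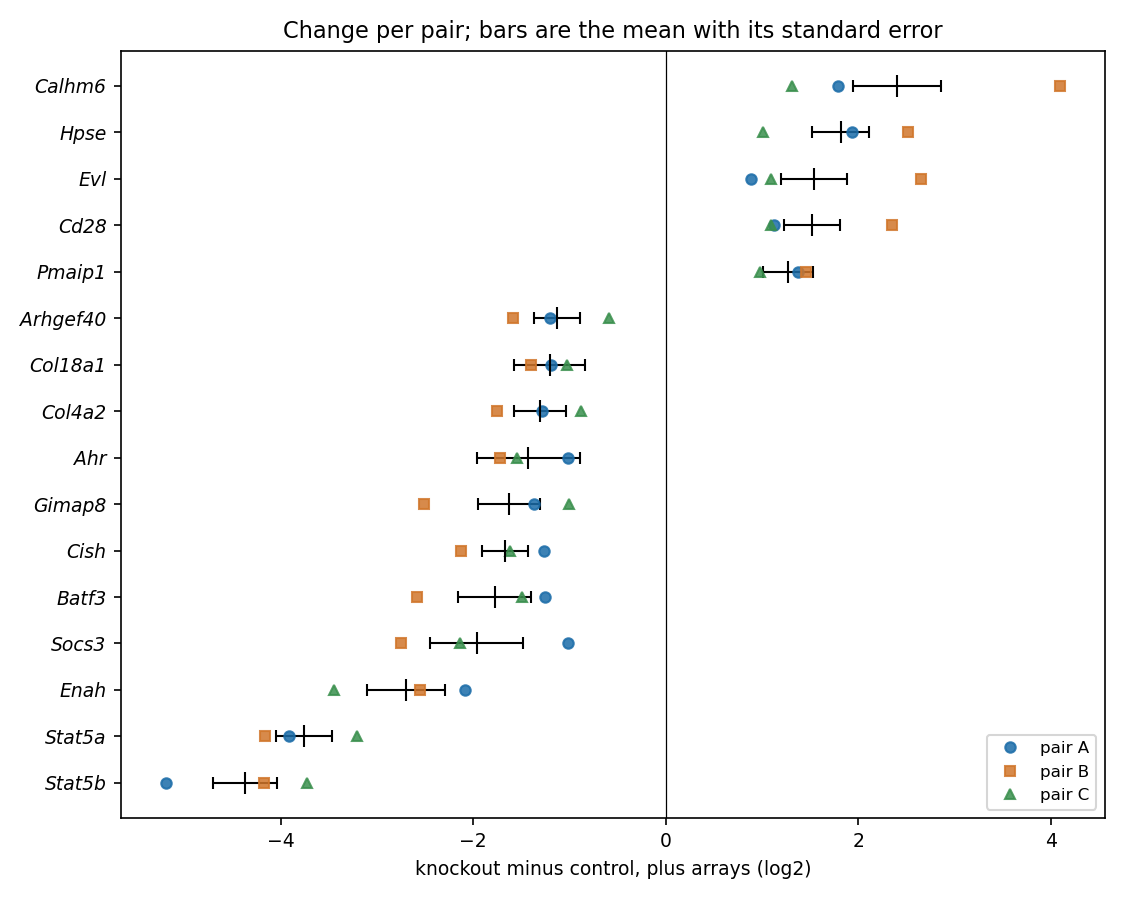
Knockout minus control (x axis, log2) for Stat5a, Stat5b and 14 further genes, those with the smallest p or at least 2-fold in every pair. Coloured points are the 3 pairs, the black tick is the mean with its standard error, and the points of each gene lie on 1 side of 0.

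The remaining genes with at least 2-fold in all 3 pairs were Batf3, Ahr and Col18a1. Batf3, a factor needed by cross-presenting dendritic cells, had signals of 223, 503 and 366 in the controls and 74.9, 57.1 and 109 in the knockouts. It showed no overlap and a difference of -1.78 ± 0.38, with an adjusted p of 0.470 by limma. Ahr, the aryl hydrocarbon receptor, was at -1.43 ± 0.53, and its groups overlapped because control A, at 259, lay between the knockouts. Col18a1, collagen XVIII, was at -1.21 ± 0.37 with pairs of -1.19, -1.40 and -1.02.

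TTCNNNGAA is its own reverse complement as a pattern, so a search of 1 strand covers both. It was found in 8.30% of all 32851 RefSeq promoter windows and for 684 of the 8372 tested autosomal genes with a window (8.17%). Among autosomal genes with an unadjusted p under 0.05 it was found for 44 of 444 on the lower side (9.91%) and 31 of 371 on the higher side (8.36%), shares close to that of all tested genes. Of the 9 genes at least 2-fold lower in every pair, 8 had a window and 4 held a match, Cish, Socs3, Gimap8 and Batf3. Of the 3 on the higher side, 2 had a window and neither held it. A pattern 1 base longer, with 4 free bases between TTC and GAA, was found in 6.95% of all windows, in 0 of those 8 and in 1 of those 2. A match describes letters in a window and does not show binding.

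Monocyte and dendritic cell genes were mixed. Of 19 monocyte and macrophage genes tested, 7 were on the higher side at an unadjusted p under 0.05 and 1 on the lower side. The shares of all genes were 4.43% and 5.38%. The list median was 0.25, or 0.29 relative to all genes, but it was -0.36 in pair B, 0.80 in pair A and 0.12 in pair C. Without pair B and its minus arrays, 4 were on the higher side and none on the lower side, with a relative median of 0.36. F13a1, the coagulation factor XIII A chain carried by monocytes, had signals of 753, 255 and 1108 in the controls and 2567, 1326 and 1403 in the knockouts, with no overlap and a difference of 1.43 ± 0.38. The fractalkine receptor gene Cx3cr1 was at 1.26 ± 0.42 and the lysosomal protease gene Ctss was at 0.83 ± 0.27, both with overlapping groups. Fcgr3, an Fc receptor gene, was at -1.14 ± 0.42, with 0.10 in pair A.

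Of 15 MHC class II and dendritic cell genes, 2 were on each side at an unadjusted p under 0.05. Among all genes 4.43% were higher and 5.38% lower. The list median was 0.03, or 0.07 relative to all genes. Beside Batf3, Ccl17, a chemokine of dendritic cells, had signals of 367, 345 and 185 in the controls and 135, 140 and 76.6 in the knockouts. Its pairs A and B gave -1.26 and -1.13, pair C was close to these, the groups did not overlap, and the mean was -1.13 ± 0.30. Irf8, which directs monocyte and dendritic cell fate, was at 1.02 ± 0.43 with 0.83, 1.87 and 0.36 in the pairs. Ccl6, another chemokine, was at -1.41 ± 0.44 with 0.05 in pair A and -2.91 in pair B.

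As a list, late granule genes of the neutrophil series had a low median in pair B and a median near 0 or above it in the other pairs. The 24 secondary granule and late neutrophil genes had a median of -0.69, or -0.65 relative to all genes. At an unadjusted p under 0.05, 5 were on the lower side and 1 on the higher side, against 5.38% and 4.43% of all genes. With arrays set to the same median 3 were on the lower side, and with quantile normalization 2. The medians of pairs A, B and C were 0.28, -2.26 and 0.03, and the low mean came from pair B. Without that pair and its minus arrays, 2 were on the higher side, none was on the lower side and the median relative to all genes was 0.16. Ltf, encoding lactoferrin, had signals of 935, 7305 and 2771 in the controls and 569, 238 and 2760 in the knockouts. Control B was by far the highest of the 6 arrays and knockout B the lowest, and the arrays of pair C were nearly equal. Cd177 was at -1.74 ± 0.67, with -0.47, -4.54 and -0.20 in the pairs. Of 12 primary granule genes, 2 were on the higher side and the median was 0.29. Ctsg, encoding cathepsin G, was at 0.90 ± 0.28 with 0.02 in pair C.

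Platelet and red cell genes lay on the lower side in most cases. Of 19 megakaryocyte and platelet genes, 15 had a value below 0. At an unadjusted p under 0.05, 8 were on the lower side and none on the higher side, against 5.38% and 4.43% of all genes. The median was -0.41, or -0.37 relative to all genes, and pairs A, B and C gave -0.31, -0.84 and -0.14. With arrays set to the same median, 4 of the 19 were on the lower side and the median itself was -0.22. Without pair B and its minus arrays, 6 of the 19 were on the lower side and the relative median was -0.23. Vwf, encoding von Willebrand factor, had signals of 1512, 1109 and 3504 in the controls and 758, 551 and 2310 in the knockouts. Each knockout was below its own control, while the groups overlapped, and the difference was -0.84 ± 0.21 with an adjusted p of 0.470 by limma. The platelet receptor genes Gp1bb and Gp9 were at -1.31 ± 0.36 and -0.84 ± 0.25. The minus arrays gave a list median of -0.47, close to that of the plus arrays, and -0.75 for Vwf.

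Of 18 red cell genes, 15 had a value below 0. At an unadjusted p under 0.05, 4 were on the lower side and none was on the higher side, against 5.38% and 4.43% of all genes. The median was -0.48, or -0.44 relative to all genes, with -0.38, -1.08 and -0.02 in pairs A, B and C, and without pair B 2 of the 18 were on the lower side. Ermap, encoding an erythroblast membrane protein, had signals of 1346, 929 and 541 in the controls and 533, 60.01 and 329 in the knockouts. The groups did not overlap, the pairs ran from -0.67 to -3.38, and the mean was -1.78 ± 0.64. Aqp1, the water channel of red cells, was at -1.43 ± 0.51, and Add2, encoding a membrane skeleton protein, was at -0.78 ± 0.28.

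All 5 tested GIMAP genes had values below 0, and 3 other GIMAP genes were under the level filter. Gimap8, Gimap1 and Gimap5 had an unadjusted p under 0.05, and the list median was -0.81, or -0.77 relative to all genes. Gimap1 had signals of 480, 487 and 488 in the controls and 338, 70.1 and 345 in the knockouts, with no overlap and a difference of -1.09 ± 0.33. Gimap5, Gimap6 and Gimap9 were at -0.81, -0.56 and -0.62, with overlapping groups. Without pair B the median relative to all genes was -0.48, and 2 of the 5 were on the lower side.

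Stem and progenitor genes gave 3 on the higher and 4 on the lower side of 24 tested, with a median of -0.33, or -0.29 relative to all genes. Without pair B and its minus arrays 1 was on the higher side and 2 on the lower side, with a relative median of -0.04. Mycn, a MYC family factor, was at -0.90 ± 0.25, with -0.66, -1.49 and -0.56 in the pairs. Cd34, a surface marker of progenitors, was at 0.54 ± 0.22, with pairs between 0.38 and 0.66. Its level in control B (927) and knockout B (1212) was far below the other arrays, so the groups overlapped although every pair pointed the same way.

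Genes of cell division mostly had values above 0. Of 34 mitosis genes, 32 were above 0 and 25 were above 0 in all 3 pairs. Over all 10583 genes tested, 3695 had the same sign in all 3 pairs, in either direction. Of the 34, 17 reached an unadjusted p under 0.05 on the higher side and none on the lower side. The median was 0.54, or 0.58 relative to all genes, with 0.31, 0.995 and 0.21 in pairs A, B and C. Without pair B and its minus arrays, 8 of the 34 were on the higher side and the relative median was 0.24. Setting arrays to the same median gave 24 on the higher side, where 10.6% of all genes were on that side. Quantile normalization gave 19 with a relative median of 0.50, where the share of all genes was 5.81%. In the main fit that share was 4.43%. In the minus arrays the list median was -0.03. Cdk1, the kinase that drives entry into mitosis, had signals of 1696, 935 and 1959 in the controls and 2176, 2568 and 2558 in the knockouts. The groups did not overlap, and the difference was 0.72 ± 0.21 with an adjusted p of 0.507 by limma. Prc1, which bundles microtubules of the central spindle, was at 0.65 ± 0.20 with overlapping groups.

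Of 37 genes of S phase and DNA replication, 29 were above 0, 11 were on the higher side and none was on the lower side. The shares of all genes were 4.43% higher and 5.38% lower. The list median was 0.33, or 0.37 relative to all genes. Without pair B, 4 of the 37 were on the higher side. Dut, which keeps uracil out of DNA, was at 0.72 ± 0.22 and Gins1, a subunit of the replicative helicase, was at 0.95 ± 0.29. Both groups of arrays were separate for these genes, and the pair differences were largest in B, at 1.35 and 2.08. Among 17 CDK inhibitors and G1 cyclins, Cdkn2c, encoding p18, had signals of 1269, 668 and 1728 in the controls and 2197, 1960 and 2225 in the knockouts. It showed no overlap and a difference of 0.88 ± 0.21, while Cdkn1c, encoding p57, was at -0.84 ± 0.35 with 0.29 in pair C.

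Nuclear genes of the respiratory chain and subunits of the proteasome also mostly had values above 0. Of 37 respiratory chain genes, 34 were above 0, 10 were on the higher side and none was on the lower side, with a median of 0.23, or 0.27 relative to all genes. Of 30 proteasome subunits, 26 were above 0, 11 were on the higher side and none was on the lower side, with a median of 0.30, or 0.34 relative to all genes. The counts depended on the scaling. Quantile normalization gave 7 respiratory chain genes on the higher side with a relative median of 0.15, and 7 proteasome subunits on the higher side and 1 on the lower side with a relative median of 0.16. Setting arrays to the same median gave 16 and 15 on the higher side, where 10.6% of all genes were on that side. Without pair B, 3 of each list were on the higher side, and the pair medians of B (0.59 and 0.64) were several times those of A (0.08 for both) and C (0.13 and 0.19). Ndufa9 of complex I was at 0.67 ± 0.21, Cox7a2 of complex IV at 0.49 ± 0.16, Psmb7 at 0.70 ± 0.21 and Psma1 at 0.58 ± 0.18. In pair B the control had the higher array median (113.6 against 75.2) and the lower beta-actin ratio, and the part of these in the list values was not tested.

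**Figure D4:**
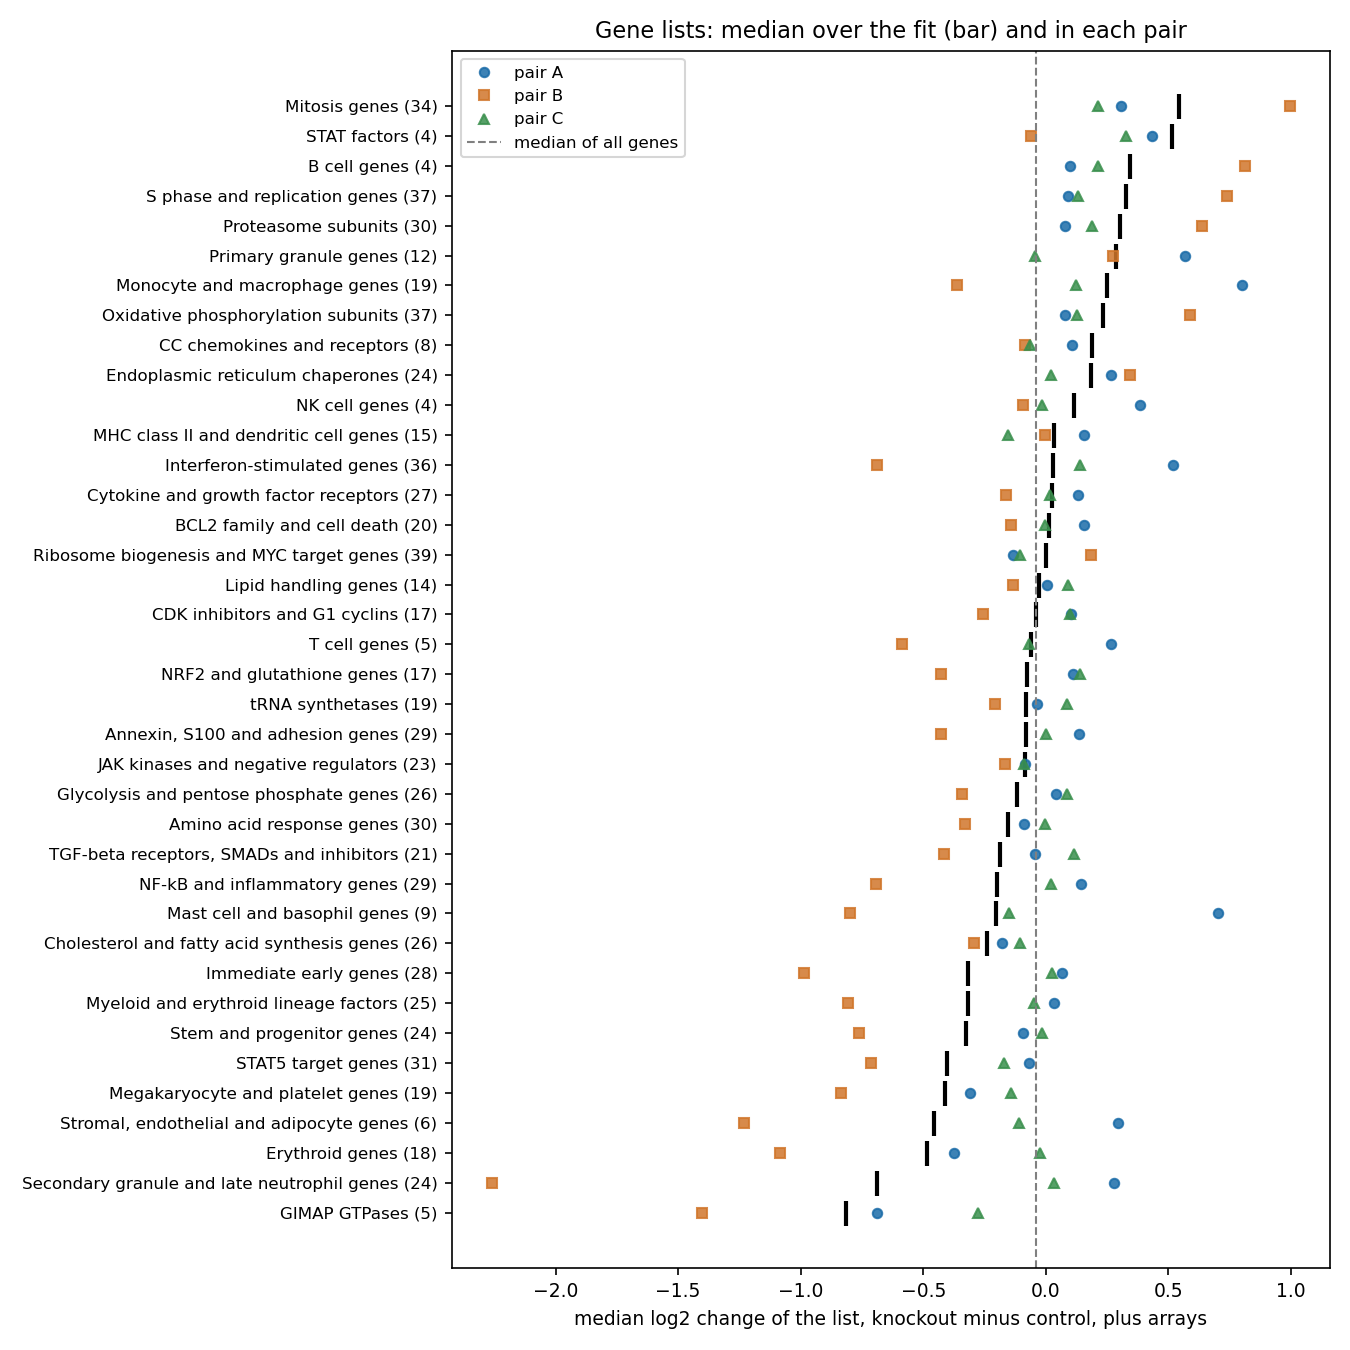
Median difference of each gene list, knockout minus control in the plus arrays (x axis, log2), with the number of tested genes in brackets; the black bar is the median of the fit, coloured points are the medians of the 3 pairs and the dashed line is the median of all genes. Points of pair B lie farthest from 0 in most lists. All 3 points lie above 0 for the mitosis list and below 0 for the GIMAP and megakaryocyte lists. Several other lists on each side share this.

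Interferon-stimulated genes gave opposite values in different pairs. Of 36 tested, 1 was on the higher side, B2m, the light chain of MHC class I, at 0.66 ± 0.20. The list median was 0.03, with 0.52 in pair A, -0.69 in pair B and 0.14 in pair C. Without pair B 3 of the 36 were on the higher side and the relative median was 0.31.

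Lipid genes divided. Mgll, which breaks down monoglycerides, was at -1.19 ± 0.34, and Abcg1, a cholesterol exporter, had signals of 3066, 2320 and 2687 in the controls and 1942, 1059 and 1494 in the knockouts. Abcg1 showed no overlap, with -0.86 ± 0.27. Of 14 tested lipid handling genes, 3 were on each side at an unadjusted p under 0.05, where 4.43% of all genes were higher and 5.38% lower. Nop58 and Ppan, nucleolar proteins of ribosome assembly, were at -0.82 ± 0.25 and -0.87 ± 0.34 in a list of 39 with a median of 0.00.

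Among inflammatory and early response genes, Il1b was at -1.28 ± 0.46 and Ier3 at -1.11 ± 0.36, both with their largest difference in pair B. Dusp6, a phosphatase that turns off ERK, was at 0.81 ± 0.31. Lgals1, encoding galectin-1, had signals of 5457, 8050 and 7351 in the controls and 9253, 24527 and 9854 in the knockouts, with no overlap and a difference of 0.93 ± 0.22. Itgal, the alpha chain of the leukocyte integrin LFA-1, was at 0.75 ± 0.21. None of these passed the adjusted threshold. The remaining lists had medians between -0.46 and 0.34.

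Markers of other blood lineages were sparse. Of 21 T cell genes written down, 16 had a probe set and 11 of these were under the level filter, Cd3d, Cd3e, Cd3g and Cd4 among them. Of 18 B cell genes 12 were under the filter, of 14 natural killer genes 9, of 19 stromal and endothelial genes 11, and of 11 eosinophil genes 5. Cd28 was thus measured where most other T cell genes were dim. Thy1, a marker of T cells and some progenitors, had signals of 159, 287 and 154 in the controls and 97.6, 75.6 and 79.6 in the knockouts, with no overlap and a difference of -0.95 ± 0.27.

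The same knockout comparison in the minus arrays gave the same called genes, Stat5a and Stat5b, at -3.80 ± 0.29 and -4.59 ± 0.33. The knockout effect in plus arrays minus that in minus arrays was 0.04 ± 0.41 for Stat5a and 0.22 ± 0.47 for Stat5b, within its standard error. No gene passed an adjusted test of that change, and 223 genes (2.11%) had an unadjusted p under 0.05, fewer than the 529 expected with no difference. The values of the named genes are given with that limit.

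The feedback inhibitors had smaller differences in the minus arrays. For the called Socs2 probe set, minus signals were 35.9, 48.4 and 36.7 in the controls and 21.6, 8.71 and 17.8 in the knockouts, a difference of -0.60 ± 0.33. The change in the knockout effect was -2.48, with an unadjusted p of 0.000176 and an adjusted p of 0.981 in limma. Cish had minus signals of 577, 795 and 385 in the controls and 327, 446 and 387 in the knockouts. Its difference there was -0.51 ± 0.24, and the change was -1.15 with an unadjusted p of 0.00495 in limma. Socs3 was at -0.11 ± 0.48 in the minus arrays.

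Enah, Batf3, Calhm6 and Gimap8 also had small minus values, at -0.30, 0.19, 0.23 and -0.25. The changes were -2.40, -1.97, 2.17 and -1.38, each with an adjusted p of 0.954 in limma. Enah was dim in the minus arrays, at 79.2, 2.33 and 73.7 in the controls and 16.7, 8.09 and 79.4 in the knockouts. Near and below the constant of 32 a fall shows little on this scale. Cd28 was dim in all minus arrays, with signals of 24.4, 111 and 71.6 in the controls and 57.7, 186 and 61.2 in the knockouts. Hpse was at 0.92 ± 0.30 in the minus arrays, in the direction of the plus arrays, and Stat3 was at 1.35 on its main probe set. Col18a1 was at -1.10, nearly its plus value. Flt3, F13a1 and Csf1r were at 0.37, 0.97 and 0.74.

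**Figure D5:**
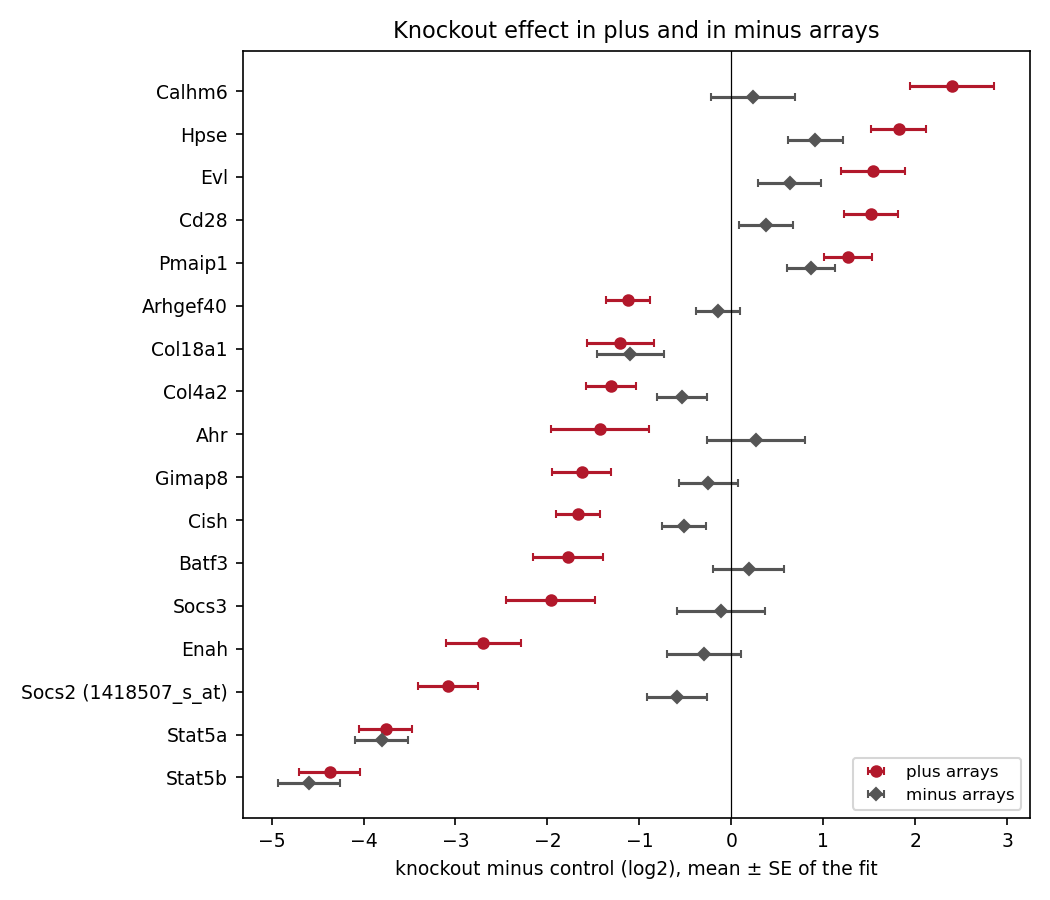
Knockout minus control (x axis, log2, mean ± standard error of the fit) in the plus arrays (circles) and the minus arrays (diamonds) for 17 genes. Stat5a, Stat5b and Col18a1 have nearly equal values in both, while the values for Socs2, Enah, Socs3 and Batf3 are near 0 or small in the minus arrays.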

How the data were processed

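Total RNA of 12 samples was hybridised to 1 Affymetrix array each, per the labels. The deposited values are linear MAS5 signal intensities per the submitters' processing notes, for 45101 probe sets; the authors' MAS5 version and detection calls are not given in the sources used here. Gene symbols came from the platform annotation: 34958 probe sets had 1 symbol, 932 had several and 9211 were not listed, and names were updated through RefSeq for 34754. Intensities were put on the log2 scale as log2(signal + 32), and the probe set with the highest mean stood for each gene if that mean was at or above the median of all probe sets (6.76). The log2 values were fitted with limma 3.58.1 in R 4.3.3 over all 12 arrays, with 4 groups and the title form as a block, and eBayes with a trend (6 residual and 5.78 prior degrees of freedom). Tests are two-sided, adjusted over all genes. The title form was kept as a block because arrays of 1 form deviated together: the deviations from the group means of control and knockout plus arrays had correlations of 0.68, 0.55 and 0.63 in pairs A, B and C. The scripted tests were checked on simulated data.

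Genes were named as the called ones, the 5 smallest p-values in each direction where fewer than 5 were called, and members of 39 gene lists. The plan was up to 2 uncalled members per list, those with the smallest p. More than 2 are named for some lists, among them the platelet and monocyte lists, and the smallest p was not always followed. Zfpm1, at -1.08 ± 0.42, had the smallest p of the lineage factor list and is not described above. Genes at least 2-fold in every pair, other probe sets, further STAT5 targets, receptor chains and GIMAP genes were added after their values were seen. The comparison and the lists were chosen with earlier results of these data known, so list counts are descriptions and no list was tested. Alternatives covered the scaling, the constant, the filter, the probe set rule, the block, weights, the beta-actin ratio and arrays left out; X-linked and Y-linked genes are left out of the description.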

Additional observations from a re-analysis of the deposited data

Results flagged for a closer look

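For 2 of the named genes every plus pair moved one way and every minus pair the opposite way. Thy1 was at -0.95 in the plus arrays and 0.34 in the minus arrays, and the knockout effect differed between them by -1.30. Prc1 was at 0.65 in the plus arrays and -0.10 in the minus arrays, a difference of 0.75. The unadjusted limma p of that difference was 0.00556 for Thy1 and 0.0227 for Prc1, and neither passed the adjustment over all genes.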

How the results depend on the processing

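Of 26 alternatives, 23 include minus arrays, and in these no gene passed an adjusted test of the change in the knockout effect between plus and minus arrays. Stat5a and Stat5b were called lower, with 0 genes higher, in all but the settings that follow. The 6 plus arrays alone with pairs kept called 0 lower genes (480 at an unadjusted p under 0.05), and treating KC- as a control also called 0. A level filter at the 75th percentile called 0, and Stat5a and Stat5b are not tested there. With no replicate block the counts were 0 higher and 2 lower in the 12-array fit, with the same calls, and the genes at an unadjusted p under 0.05 went from 1038 to 265. In the 6 plus arrays alone, leaving out the pairing called Stat5a and Stat5b lower, each with a limma adjusted p of 0.0356, which the paired fit did not. A constant of 100 called 4 lower genes, with Enah and Cish added. Array weights called 6 higher and 7 lower. Leaving out single plus arrays gave 0 to 1 higher and 2 to 4 lower: without control A Enah and Cish were called, without knockout A Socs3, and without knockout C Hpse was called higher. The plus arrays of pairs A and C alone, chosen after seeing the data and with 1 residual degree of freedom, called 12 higher and 14 lower. The mean over probe sets called Cish and turned Stat3 to -0.02. Of 1915 gene values under alternatives, 1884 kept direction and side of the threshold, 26 passed it, 4 no longer did, and 1 reversed. All followed genes but Stat5a and Stat5b were uncalled in the main fit, so most values kept their side by staying uncalled. Many were also picked from these data, so these counts do not measure robustness. With 3 arrays per group, probe sets near the constant of 32 carry little information on size.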
